A study of Mus musculus with 8 samples.

Results

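The 36 genes described here encode neural and synaptic adhesion molecules, and they were chosen by name from the 31058 genes of a single-cell count matrix. They comprise Cadm1 to Cadm4, Nrxn2 and Nrxn3, Nlgn1 to Nlgn3, Cntn1 to Cntn6, Cntnap1, Cntnap2 and Cntnap4, Lrrtm1 to Lrrtm4, Ncam1 and Ncam2, the IgLON genes Lsamp, Ntm, Opcml and Negr1, Dscam, the L1 family (Nrcam, Nfasc, L1cam and Chl1), and Tenm2 to Tenm4. All 36 were found in the matrix. The cells were sorted from the dissociated dentate gyrus, the region of the hippocampus that makes neurons in adult life, of Ki67TD-NES mice. These mice are on a mixed C57BL/6J and CD1 background and are heterozygous for a tamoxifen-dependent creERT2 recombinase placed in the Ki67 gene, a tdTomato reporter that recombination turns on, and a GFP transgene under Nestin regulatory sequence. Every mouse received tamoxifen, so tdTomato marks cells that divided after it and their progeny, and GFP was meant to mark neural stem cells (NSCs). There were 7 experiments, each a pool of male and female mice: 1 at 1 month of age, 3 at 2 months and 3 at 6 months by the labels, an age for which the study's methods give a range starting there. The labels list 8 libraries because the first experiment at 2 months was split over 2 libraries by sort gate, and these 2 were summed. Its first library held GFP+tdT+ cells together with cells negative for both reporters, and its second held GFP+tdT− cells. Every other library held GFP+tdT+ and GFP+tdT− cells. All 2-month libraries were made with 10x chemistry Version 2 and all others with Version 3, so this age and this chemistry cannot be told apart.

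Cell adhesion molecules let neural cells recognise and hold each other, first while they migrate and send out processes and later at synapses and at the contacts between axon and glia. At synapses, presynaptic neurexins bind postsynaptic partners such as neuroligins and the leucine-rich Lrrtm proteins, while Cadm proteins bind each other across the cleft. NCAM, L1, contactin and IgLON proteins, all of the immunoglobulin superfamily, act along axons, at nodes of Ranvier and on glia, and oligodendrocyte precursor cells (OPCs) are known to receive synapses from neurons.

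Levels are given in CPM, the unique molecular identifiers (UMIs, 1 for each captured transcript) of a gene per 1000000 UMIs summed over the cells of 1 class in 1 experiment, with the mean and SD over experiments that held at least 10 cells of that class. Reads were counted near transcript 3′ ends, so each gene is compared between cell classes and not with other genes. Cells were placed in classes by how many markers of each type had a UMI. The neural and oligodendrocyte classes allowed at most 1 marker each of microglia, endothelial and mural cells. Other limits were set by class, and some allowed more than 1 marker of another type, such as neuroblast markers in oligodendrocyte classes and radial glia markers in neuroblasts. Of 26036 barcodes, 24376 passed a filter on detected genes and mitochondrial share, and 15319 fell into 10 neural and oligodendrocyte classes. These held 1460 quiescent NSCs, 121 cycling NSCs, 946 intermediate progenitors (IPCs), 172 early and 761 late neuroblasts, 1248 astrocytes, 4390 non-dividing and 343 dividing OPCs, 224 committed oligodendrocytes (cells leaving the OPC state) and 5654 myelinating oligodendrocytes. A further 7141 cells, 29.3% of those kept, entered no class, and no doublet caller was run. The median number of UMIs per cell ran from 2230.0 in astrocytes and 3706 in quiescent NSCs to 7474 in cycling NSCs and 11580 in committed oligodendrocytes. Library totals ranged from 4861883 to 43826338 UMIs, and 119 barcodes were shared between libraries (0.457%).

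The classes had these levels of the markers that drew them. The summed NSC markers averaged 9386 CPM (range 5945 to 12863) in quiescent NSCs, 4799 CPM in cycling NSCs and 3775 CPM in astrocytes. The summed astrocyte markers averaged 4233 CPM (range 3150.4 to 5701) in astrocytes against 796 CPM in quiescent NSCs, and the cell cycle markers 5988 CPM in cycling against 156 CPM in quiescent NSCs. Some cells lay near these limits: 287 had as many NSC as astrocyte markers and were left out, and 176 quiescent NSCs were 1 marker from that tie. Because the same markers drew the classes, these sums describe the gates and are no test of them.

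The members are long genes. Placed on GRCm38 with GENCODE annotation, their median length was 349 kb against 12.7 kb over all genes of the matrix, and 27 of 36 spanned more than 100 kb. Cadm2 occupied chr16:66655421-67620908, reverse strand. Ntm occupied chr9:28994750-29963141, reverse strand, Cntn1 chr15:92051165-92341967, forward strand, and Nfasc chr1:132564690-132741797, reverse strand. Cadm3 lay at chr1:173333258-173367695, reverse strand. Exons of Cadm3, Nlgn3 and L1cam overlap exons of a neighbour on the same strand (Ackr1, Gm21986 and Arhgap4), so reads there could belong to either gene.

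RefSeq start sites with 300 bases around them were at hand for 29 of the 36 members, 43 windows in all, each running from 250 bases before to 50 bases after a start. The windows were searched on both strands for 5 short motifs: CAGCTG and CAGATG (bound by neural basic helix-loop-helix factors), AACAAT (the SOX core), TTGGCA (an NFI element) and TGACTCA (the AP-1 site). The following 4 windows, from GRCm38.p6 and written 5′ to 3′ on the strand of the gene, belong to the members that the results turn on most: Cadm3, the only member called higher in cycling NSCs, Ntm, which had the smallest adjusted p among those called lower there, and Cntn1 and Nfasc, which mark OPCs and committed oligodendrocytes. RefSeq gives 2 windows for Ntm, 3 for Cntn1 and 2 for Nfasc, and the window printed for each is the only one of that gene with a motif match, for which it was picked. Capitals mark a motif match on either strand. The Cadm3 window is chr1:173367646-173367945 (reverse strand), that of Ntm chr9:29413403-29413702 (reverse), that of Cntn1 chr15:92127878-92128177 (forward) and that of Nfasc chr1:132642809-132643108 (reverse).
Cadm3: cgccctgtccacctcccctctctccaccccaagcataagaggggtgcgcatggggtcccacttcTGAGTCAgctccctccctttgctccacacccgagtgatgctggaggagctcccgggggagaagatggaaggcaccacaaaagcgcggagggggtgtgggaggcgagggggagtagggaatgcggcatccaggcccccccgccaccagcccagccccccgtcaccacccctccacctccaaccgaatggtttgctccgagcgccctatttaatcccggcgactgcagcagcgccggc
Ntm: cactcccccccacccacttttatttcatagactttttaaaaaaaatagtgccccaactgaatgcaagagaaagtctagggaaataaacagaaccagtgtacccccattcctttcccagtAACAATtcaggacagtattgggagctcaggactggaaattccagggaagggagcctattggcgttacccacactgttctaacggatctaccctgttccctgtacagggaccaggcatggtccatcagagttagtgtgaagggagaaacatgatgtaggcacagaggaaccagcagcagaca
Cntn1: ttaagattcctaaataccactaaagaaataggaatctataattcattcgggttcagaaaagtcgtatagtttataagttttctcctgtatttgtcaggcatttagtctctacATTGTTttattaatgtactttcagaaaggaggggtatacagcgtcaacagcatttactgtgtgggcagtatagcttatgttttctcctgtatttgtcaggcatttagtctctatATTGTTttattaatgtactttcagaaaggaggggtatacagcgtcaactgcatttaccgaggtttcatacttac
Nfasc: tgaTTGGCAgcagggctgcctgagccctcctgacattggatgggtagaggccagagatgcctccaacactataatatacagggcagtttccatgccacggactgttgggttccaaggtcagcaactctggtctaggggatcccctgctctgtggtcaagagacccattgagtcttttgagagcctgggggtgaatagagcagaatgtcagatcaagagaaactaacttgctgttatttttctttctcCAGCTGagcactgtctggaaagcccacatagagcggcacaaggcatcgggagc
Cadm3 held the AP-1 site, found in 1 of the 43 member windows and in 5.20% of all 32851 windows. Ntm held the SOX core and Cntn1 held it at 2 places, while it was in 3 member windows (Cntn1, Ntm and Tenm3) and in 10.7% of all windows. Nfasc held CAGCTG and TTGGCA, which were in 7 and 6 member windows and in 16.3% and 14.1% of all windows. CAGATG was in 3 member windows and in 17.2% of all windows. These matches describe letters only.

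Members differed in the class where they were most abundant. Non-dividing OPCs held the highest mean level of 12 of the 36 members, late neuroblasts of 7, committed oligodendrocytes of 6, astrocytes of 5, dividing OPCs and early neuroblasts of 2 each, quiescent NSCs and myelinating oligodendrocytes of 1 each, and cycling NSCs and IPCs of 0. For 34 of the 36 the experiments of the highest class overlapped those of the next. The exceptions were Cntn2 in myelinating oligodendrocytes and Nfasc in committed oligodendrocytes. The class means rest on unlike sets of experiments, 7 for non-dividing OPCs, 5 for committed oligodendrocytes and 3 for dividing OPCs. No share over all genes was computed for the counts in this paragraph, so they describe the members only. Cntn3, Cntn5, Cntnap1, Cntnap4 and Tenm2 stayed under 12 CPM in every class. In microglia, endothelial and mural cells, 30 of 36 members stayed under 10 CPM. The others were Cadm4 (200.5 ± 55.6 CPM (SD, n = 7)), Nrxn2 (127 ± 36.4 CPM (SD, n = 7)), Lsamp (107 ± 53.1 CPM (SD, n = 7)), Ntm (31.8 ± 15.1 CPM (SD, n = 7)) and Nlgn2 (15.4 ± 10.8 CPM (SD, n = 7)) in mural cells, and Cadm1 in microglia (116 and 43.5 CPM in the only 2 experiments with 10 microglia).

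**Figure D1:**
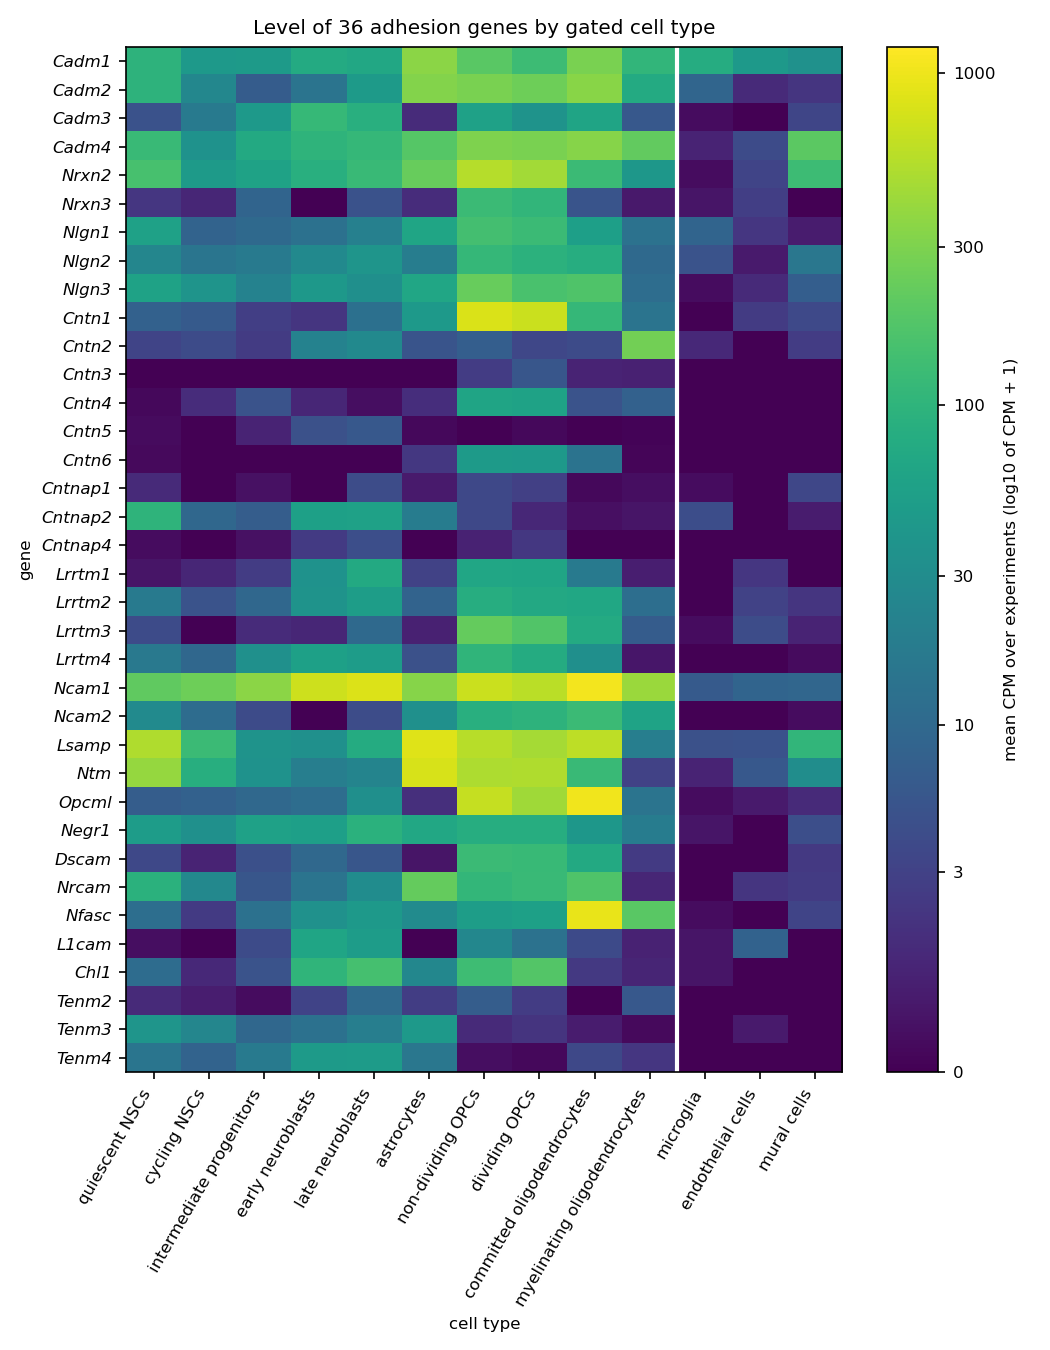
Heat map of mean CPM (colour, log10 of CPM + 1) of the 36 members (rows) in 10 neural and oligodendrocyte classes and, right of the white line, in microglia, endothelial and mural cells (columns), averaged over experiments. OPCs hold the highest mean of 12 members, and Cntn2 (268 CPM in myelinating cells) and Nfasc (952 CPM in committed oligodendrocytes) stand apart from their next class.

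Taking the families by role, the neurexins and neuroligins had their highest mean levels in OPCs. Nrxn2, a presynaptic organiser, averaged 546 CPM ± 89.9 (SD, n = 7) in non-dividing OPCs, where experiments ran from 437 to 685 CPM with a median of 502. It averaged 153 CPM ± 42.1 (SD, n = 7) in quiescent NSCs. Every OPC value of Nrxn2 lay above every quiescent NSC value. Nrxn3 was higher in non-dividing OPCs, at 78.6 to 185 CPM there, against at most 25.5 CPM in any experiment of the neural classes, astrocytes or later oligodendrocytes. Its 0 UMIs in early neuroblasts allow a level of up to 5.11 CPM (3 counts over the class), counting error only. The neuroligins, the classical neurexin receptors, shared this order, with Nlgn1 at 144 CPM ± 16.7 (SD, n = 7), Nlgn2 at 111 CPM ± 12.2 (SD, n = 7) and Nlgn3 at 229.6 CPM ± 59.6 (SD, n = 7) in non-dividing OPCs. The Lrrtm genes, whose products are postsynaptic ligands of neurexins, were also expressed in OPCs, led by Lrrtm3 at 185 to 272 CPM. Lrrtm1 had its highest mean in late neuroblasts (72.5 CPM, range 42.3 to 98.8), above its mean of 66.0 CPM in non-dividing OPCs (range 40.1 to 80.7), and those ranges overlap.

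Cadm1, Cadm2 and Cadm4, immunoglobulin proteins that bind across synapses and between axon and glia, followed another order, being high in astrocytes, OPCs and committed oligodendrocytes. Cadm2 averaged 339 CPM ± 82.5 (SD, n = 5) in committed oligodendrocytes, 322 CPM ± 61.2 (SD, n = 7) in astrocytes and 6.95 CPM ± 3.51 (SD, n = 7) in IPCs. Cadm4 kept a level of 218 CPM ± 29.7 (SD, n = 7) in myelinating oligodendrocytes. Cadm3 had its highest means in neuroblasts, with 114 CPM ± 39.2 (SD, n = 5) in early and 87.8 CPM ± 20.5 (SD, n = 7) in late neuroblasts. It was at 1.37 CPM ± 2.40 (SD, n = 7) in astrocytes but was also present in non-dividing OPCs, at 53.7 CPM at 1 month and 49.8 to 71.9 CPM at 6 months. The IgLON proteins are anchored to the membrane by a lipid and regulate neurite outgrowth. Lsamp and Ntm were highest in astrocytes, at 676 to 956 CPM and 240.4 to 1689.8 CPM, and both were also abundant in quiescent NSCs and OPCs. Opcml was confined largely to OPCs (529 to 827 CPM in non-dividing ones) and committed oligodendrocytes (758 to 1582 CPM). Outside these and dividing OPCs, the highest value in any class was 51.0 CPM, in late neuroblasts.

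Contactins and their Cntnap partners build the domains that flank nodes of Ranvier, and Cntn1 also acts in precursor cells. Cntn1 ran from 696 to 969.9 CPM with a median of 816 in non-dividing OPCs, above every value in the other classes except dividing OPCs (599 to 768 CPM). Cntn4 and Cntn6 were OPC genes too, at 62.3 CPM ± 12.9 (SD, n = 7) and 47.0 CPM ± 10.3 (SD, n = 7). Cntn2, which clusters potassium channels beside nodes, ran from 159.6 to 354 CPM with a median of 272 in myelinating oligodendrocytes, and the highest value in any other class was 50.5 CPM, in late neuroblasts. Cntnap2, its usual partner on axons, did not share that level and averaged 0.496 CPM ± 0.494 (SD, n = 7) there. It was highest in quiescent NSCs, from 57.6 to 144 CPM with a median of 94.9, overlapping late neuroblasts (33.0 to 98.4 CPM). Of the teneurins, large proteins that bind latrophilins, Tenm3 was highest in astrocytes (15.0 to 61.8 CPM) and quiescent NSCs (15.2 to 68.9 CPM) and Tenm4 in late (33.0 to 62.3 CPM) and early neuroblasts (19.5 to 75.8 CPM).

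The first comparison asked which members differed between quiescent NSCs and NSCs in the cell cycle, using the 5 experiments with at least 10 cells of both. Of 23 members tested, 14 were lower in cycling NSCs, 1 was higher and 8 did not pass (edgeR's quasi-likelihood test with experiment as a block, Benjamini-Hochberg adjusted over 11318 genes at 0.05). Over all genes tested, 36.4% were called, 16.9% higher and 19.6% lower. The members' median log2 fold change was −1.32 against −0.13 over all genes. The lower calls included 3 of the IgLON genes (Lsamp, Ntm and Negr1), 3 Cadm genes (Cadm1, Cadm2 and Cadm4) and 1 each of the neurexins, neuroligins and contactin-associated genes (Nrxn2, Nlgn1 and Cntnap2).

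Lsamp measured 114, 50.9, 122, 115 and 219 CPM in cycling NSCs of the 1-month, the first and second 2-month and the second and the third 6-month experiments. In quiescent NSCs of the same experiments it measured 489, 442, 424, 586 and 674 CPM. All quiescent values lay above all cycling values, and the log2 fold change was −2.14 ± 0.17 (SE), adjusted p = 1.8e-33. Ntm measured 56.0, 80.0, 0, 166 and 121 CPM in cycling and 264, 503, 143, 594 and 578 CPM in quiescent NSCs in the same order (−2.28 ± 0.18 (SE), adjusted p = 3.9e-34). It was lower in cycling cells in each of the 5, although the groups overlap because the second 2-month experiment was low in both states. Cntnap2 measured 7.63, 21.8, 0, 11.5 and 7.83 CPM in cycling and 72.0, 134, 132, 94.9 and 57.6 CPM in quiescent NSCs. Its groups did not overlap, and its log2 fold change of −3.13 ± 0.35 (SE) was the lowest among the members (adjusted p = 4.6e-18). Nlgn1 (−2.30), Cadm2 (−2.16), Nrxn2 (−1.86), Nrcam (−1.79, an L1 family protein of nodes and growth cones), Cadm4 (−1.54) and Cadm1 (−1.02) also fell, as log2 fold changes. The remaining lower calls were Chl1 (−2.33), Lrrtm2 (−1.72), Ncam2 (−1.65), Tenm3 (−1.32) and Negr1 (−0.68).

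Cadm3 went the other way. It measured 10.2, 21.8, 20.4, 17.2 and 15.7 CPM in cycling and 2.34, 5.59, 0, 0 and 3.76 CPM in quiescent NSCs, and the groups did not overlap (2.27 ± 0.64 (SE), adjusted p = 0.0018). The level was low, resting on 15 UMIs in cycling cells, and quiescent NSCs of the third 2-month experiment, which had too few cycling NSCs to enter, were at 22.8 CPM. Ncam1, the neural cell adhesion molecule, measured 181, 218, 408, 224 and 235 CPM in cycling and 160.4, 254, 305, 163 and 203 CPM in quiescent NSCs. These ranges overlap, and the log2 fold change of 0.11 ± 0.15 (SE) did not pass (adjusted p = 0.63). Of the 15 calls, those of Cadm1, Cadm3, Cadm4, Cntnap2, Lsamp, Nrcam, Nrxn2 and Ntm held in every alternative setting in which the gene could be tested. Cadm3 could be tested in 10 settings, against 14 for each of the others named. It was not tested with thinned cells, with Version 2 alone, without the 1-month experiment or among genes with a UMI in 20% of cells. Moving with this comparison, the summed radial glia and astrocyte markers averaged 43824 CPM (range 37227 to 50986) in quiescent and 8627 CPM (range 6689 to 9493) in cycling NSCs, and cycling cells carried more UMIs. With every cell thinned to 1000 UMIs, 8 of the 16 members left to test were called. The part of either in the result was not tested.

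Long genes as a class also moved in this comparison. Among genes that are not members, those over 100 kb had a median log2 fold change of −0.47 and 27.9% of the 1487 were called lower, against −0.07 and 18.2% of shorter genes. Of the 18 tested members over 100 kb, 12 were lower, with a median of −1.48. The part of gene length in the members' values was not tested.

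The step from cycling NSCs to IPCs, the committed progenitors of granule neurons, divided the members. In 5 experiments, 6 of 26 tested members were higher in IPCs and 5 lower, where 12.3% of all genes tested were called, 6.88% higher and 5.43% lower. The members' median was 0.44 against 0.08 over all genes on the log2 scale. Higher were Cadm3 (1.53 ± 0.36 (SE)), Ncam1 (0.55 ± 0.13 (SE)), Lrrtm4 (1.39), Negr1 (0.85), Cadm4 (0.79) and Nrxn3. For Nrxn3, 1 UMI in cycling NSCs makes the size of the fold unreliable, and IPC levels were 1.21, 5.02, 4.76, 25.5 and 21 CPM, highest in the 6-month experiments. Lower were Lsamp (−1.59 ± 0.20 (SE)), Nrcam (−2.14 ± 0.44 (SE)), Ntm (−1.12), Cadm2 (−1.44) and Nlgn3 (−1.12, but 0.92 with cells thinned to 1000 UMIs).

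Lsamp, at 47.4, 35.1, 23.8, 29.7 and 43.9 CPM in IPCs of the 5 experiments, was below all its cycling NSC values. Ncam1 measured 244, 381, 484, 265 and 329 CPM in IPCs, above cycling NSCs within each experiment, although the groups overlap. These IPC calls depended on the setting more than those in NSCs: without the third 6-month experiment 5 members were called, without the block on experiment 3, and only the call of Nrcam held in every setting in which its gene could be tested. Of 946 IPCs, 66 had a UMI of Dlx1 or Dlx2, genes of GABAergic lineages, and without them 10 members were called. A cell cycle signature was present in 613 IPCs, and with those cells alone 9 members were called.

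Some members rose on entry into the neuroblast state. Between IPCs and early neuroblasts, 9 of 27 tested members were higher and none lower in 5 experiments and 18 did not pass, while 21.1% of all genes were called, 6.66% higher and 14.5% lower. The members' median log2 fold change was 0.54 against −0.19 over all genes. Among other genes over 100 kb, 13.5% of 1433 were higher and 7.89% lower, with a median of 0.05. At an unadjusted p under 0.05, 2 members were lower, and DESeq2 called 0 lower. With Version 3 chemistry alone 1 member, Ntm, was called lower. Chl1, a close homologue of L1 that guides axons, measured 64.2, 145, 84.6, 29.3 and 186 CPM in early neuroblasts of the 1-month, each 2-month and the first 6-month experiments. In IPCs of the same experiments it measured 2.01, 6.45, 7.15, 12.6 and 1.87 CPM, so the groups did not overlap (3.99 ± 0.43 (SE), adjusted p = 3.0e-18). L1cam, which promotes axon growth, measured 40.8, 80.3, 52.0, 68.3 and 74.2 against 4.02, 5.73, 2.38, 8.41 and 3.74 CPM (3.40 ± 0.49 (SE), adjusted p = 2.5e-10). Its early neuroblast values all lay above its IPC values. Lrrtm1 (3.47), Cntn2 (3.06), Cntnap2 (2.54), Lrrtm2 (1.39), Tenm4 (1.17), Cadm3 (0.98) and Ncam1 (0.76) were the other members that rose. The calls of Chl1, Cntn2, Cntnap2, L1cam and Lrrtm1 held in every setting in which the gene could be tested. Of those 5, only Chl1 could be tested with cells thinned to 1000 UMIs and none with stricter gates. Thinning called 1 of the 12 members left to test, and stricter gates called 0 of 9 in edgeR (3 at an unadjusted p under 0.05).

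Between early and late neuroblasts, 2 of 29 tested members rose and none fell (0 lower at an unadjusted p under 0.05), with 1.52% of all genes called, 1.2% higher and 0.32% lower. Chl1 rose by 0.76 ± 0.22 (SE) and Ncam1 by 0.37 ± 0.09 (SE) on the log2 scale. Ncam1 reached 650.3 to 945 CPM over 7 experiments of late neuroblasts, overlapping the 427 to 979 CPM of early ones. Neither call held in every setting: without the block edgeR called 0 of them (6 members at an unadjusted p under 0.05) and DESeq2 called 0 (2 at an unadjusted p under 0.05). The 172 early neuroblasts gave at most 68 cells per experiment.

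**Figure D2:**
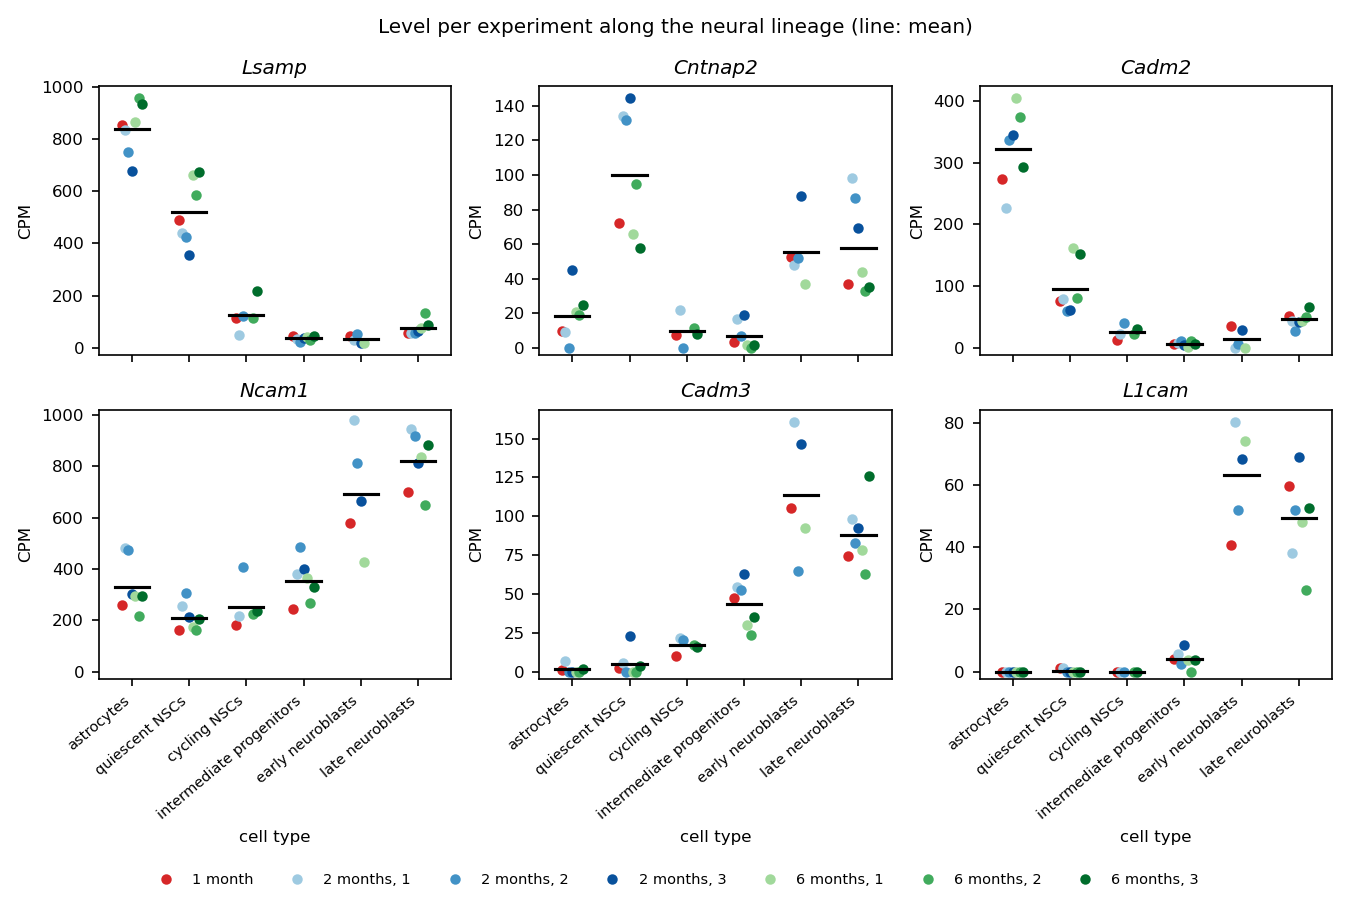
Level (y axis, CPM) of Lsamp, Cntnap2, Cadm2, Ncam1, Cadm3 and L1cam in astrocytes, NSCs, IPCs and neuroblasts (x axis), 1 point per experiment coloured by age and experiment, with a line at the mean. Lsamp and Cntnap2 are high in quiescent NSCs (519 and 100.1 CPM) and low in IPCs, while Ncam1, Cadm3 and L1cam are high in both neuroblast classes.

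Astrocytes, the class most like quiescent NSCs, differed from them in 16 of 24 tested members over 7 experiments, 12 higher and 4 lower. Over all genes, 27.2% were called, 14% higher and 13.3% lower. The members' median was 0.49 against −0.04. Among other genes over 100 kb, 19.7% of 1623 were higher and 13.5% lower, with a median of 0.08. Cadm1 ran from 163 to 751 CPM with a median of 237 in astrocytes and from 42.2 to 121 CPM with a median of 119.6 in quiescent NSCs. All astrocyte values lay above all NSC values, and the log2 fold change was 1.83 ± 0.13 (SE) (adjusted p = 4.8e-46). Cadm2 ran from 227 to 404 CPM with a median of 336 in astrocytes and from 59.8 to 163 CPM with a median of 79.4 in quiescent NSCs (1.76 ± 0.12 (SE)), again without overlap. Cntn1 had the highest fold of the members, 3.18 on the log2 scale, at 26.2 to 72.7 CPM in astrocytes. Nrcam (1.32), Chl1 (1.54), Nfasc (1.40), Ntm (1.06), Lsamp (0.80), Ncam1 (0.77), Cadm4 (0.67), Nrxn2 (0.62) and Negr1 (0.53) were higher as well.

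Cntnap2 was the clearest member on the side of NSCs. It ran from 0 to 45.1 CPM with a median of 18.8 in astrocytes, below every quiescent NSC value (−2.61 ± 0.21 (SE), adjusted p = 2.9e-32). Opcml (−1.87), Lrrtm4 (−1.63) and Lrrtm2 (−1.10) were also lower in astrocytes, at levels of at most 22.4 CPM in any quiescent NSC sum of Lrrtm2. Of the 16 calls between astrocytes and quiescent NSCs, 9 held in every setting in which the gene could be tested. Negr1 held in 11 of 16 settings, Lrrtm2 in 12 of 15 and Opcml in 9 of 12. This comparison and that of cycling with quiescent NSCs share the quiescent NSC sums. Set side by side, the log2 fold changes from quiescent NSCs were 0.80 in astrocytes and −2.14 in cycling NSCs for Lsamp, 1.83 and −1.02 for Cadm1, and −2.61 and −3.13 for Cntnap2.

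In OPCs the cell cycle went with smaller differences. Only 3 experiments held 10 dividing OPCs, and 12 of 34 tested members were lower in dividing cells and 1 higher, where 20.4% of all genes were called, 8.31% lower and 12.1% higher. Called members ran from −0.88 to 0.19 on the log2 scale, with a median over those tested of −0.17 (−0.03 over all genes). Opcml measured 411, 432 and 464 CPM in dividing OPCs of the 1-month and the second and the third 6-month experiments and 623, 571 and 614 CPM in non-dividing ones. The groups did not overlap (−0.45 ± 0.05 (SE), adjusted p = 3.9e-17). L1cam (−0.88) and Cadm3 (−0.69) had the lowest folds and Chl1 (0.19) was the 1 higher call. Without the block on experiment edgeR called 0 members (4 at an unadjusted p under 0.05), DESeq2 called 3, and without the third 6-month experiment 3 were called.

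The difference between the lineages was tested directly in the 3 experiments that held all 4 states. The cycling effect in NSCs was lower than that in OPCs for 10 of 35 tested members and higher for 1, with 15% of all genes called, 8.26% lower and 6.78% higher. Ntm (−1.95 ± 0.21 (SE)), Lsamp (−1.73 ± 0.19 (SE)), Cntnap2 (−3.09), Chl1 (−2.34), Cadm2 (−2.11), Nlgn1 (−1.95), Ncam2 (−1.65), Nrxn2 (−1.51), Nrcam (−1.44) and Cadm4 (−1.37) differed in that direction on the log2 scale, and Cadm3 (3.05) in the other. Lsamp in those experiments was at 114, 115 and 219 CPM in cycling and 489, 586 and 674 CPM in quiescent NSCs, and at 479, 454 and 461 CPM in dividing and 596, 518 and 558 CPM in non-dividing OPCs. The NSC values are separated by more than the OPC values in each experiment. The calls of Ntm, Lsamp and Cadm4 held in every setting that could be computed. All 3 experiments were made with Version 3, so the setting with that chemistry alone repeats the main fit.

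**Figure D3:**
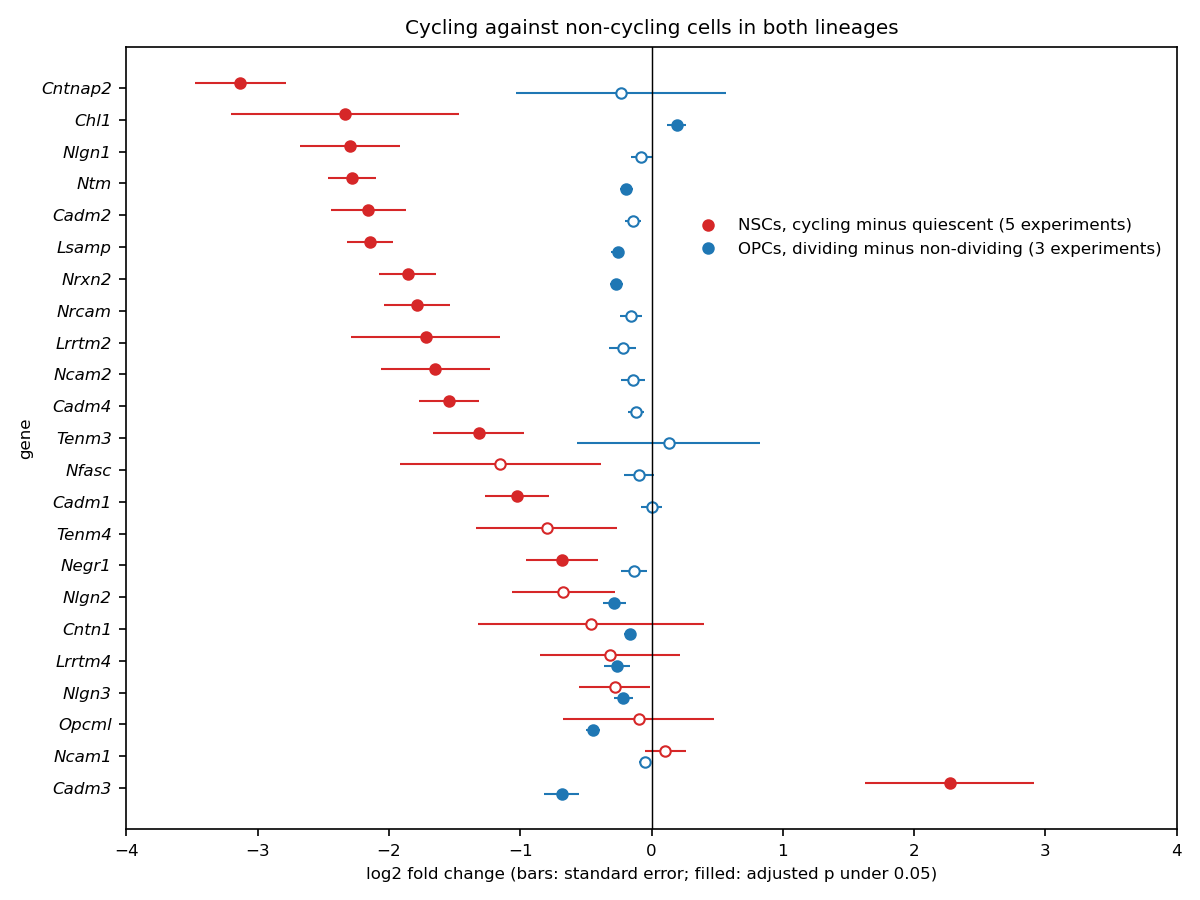
Log2 fold change (x axis, bars are SE) of each member tested in NSCs (y axis) between cycling and quiescent NSCs (red, 5 experiments) and between dividing and non-dividing OPCs (blue, 3 experiments), filled where the adjusted p was under 0.05. The NSC values reach −3.13 (Cntnap2) and 2.27 (Cadm3), while called OPC values for these genes lie between −0.69 (Cadm3) and 0.19 (Chl1).

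More members were lower than higher in committed oligodendrocytes. Of 35 members tested in 5 experiments, 18 were lower and 9 higher than in non-dividing OPCs. Over all genes, 45.8% were called, 25.7% lower and 20.1% higher. Among other genes over 100 kb, 43.7% of 2001 were lower and 15.5% higher, with a median log2 fold change of −0.58. Of the 26 tested members over 100 kb, 13 were lower and 8 higher, with a median of −1.03. The part of gene length in these values was not tested. The members' median log2 fold change was −0.83 against −0.13 over all genes. It was −0.60 with members at 0 UMIs set to their bound, or to 0 where 3 counts over the group gave no bound. Cntn1 measured 136, 87.9, 142, 96.7 and 94.3 CPM in committed oligodendrocytes of the 1-month, first and the third 2-month and second and the third 6-month experiments. In OPCs of the same experiments it measured 738, 696, 816, 748 and 841 CPM, with no overlap (−2.66 ± 0.13 (SE), adjusted p = 9.6e-90). Chl1 (−5.21), Nrxn3 (−4.38), L1cam (−3.08), Cntn4 (−2.73), Ntm (−2.06), Nrxn2 (−1.81), Lrrtm1 (−1.53) and Lrrtm3 (−1.46) fell as well. Tenm2 had 0 UMIs in committed oligodendrocytes and was at least 5.55-fold lower than in OPCs (3 counts over the group). Smaller falls were called in Nlgn1, Nlgn2, Nlgn3, Cntn6, Cntnap1, Lrrtm4, Negr1 and Dscam, a receptor by which neurites of 1 cell avoid each other.

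Nfasc, whose glial form joins myelin to the axon, was the main gain. It measured 465, 1413, 711, 963 and 1211 CPM in committed oligodendrocytes and 54.0, 48.6, 39.3, 53.0 and 72.2 CPM in OPCs in the same order. The lowest committed value was above the highest OPC value (4.20 ± 0.11 (SE), adjusted p = 1.1e-289). Tenm4 rose from near 0 (3.86, at 0 to 6.76 CPM in committed oligodendrocytes), and Ncam1 (0.95), Cadm1 (0.87), Opcml (0.85), Nrcam (0.84), Ncam2 (0.74), Cadm2 (0.49) and Cadm4 (0.31) were higher by less. The sign turned for Cadm4 with thinned cells (−0.28) and for Nrcam with Version 2 alone (−0.048). Lsamp, at 520.5 to 734 CPM, did not pass (0.23 ± 0.10 (SE), adjusted p = 0.062). The calls of Chl1, Cntn1, Cntn4, Lrrtm3, Nfasc, Nrxn2, Nrxn3, Ntm and Tenm4 held in every setting in which the gene could be tested. Tenm4 could be tested in 4 settings, against 14 for each of the others named. Committed cells already carried myelin gene transcripts: the myelinating markers summed to 16475 CPM (range 9586 to 27004) in them, 786 CPM in OPCs and 58761 CPM in myelinating cells.

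In myelinating oligodendrocytes 23 of 30 tested members were lower than in committed ones and 2 were higher, where 49.5% of all genes were called, 22.5% lower and 26.9% higher. The members' median was −1.94 against 0.07 over all genes on the log2 scale. Opcml measured 16.5, 9.28, 14.0, 14.3 and 18.2 CPM in myelinating and 954, 1582, 758, 810.5 and 988 CPM in committed oligodendrocytes, without overlap (−5.60 ± 0.21 (SE), adjusted p = 9.5e-152). Nrcam (−6.37), Cntn6 (−5.52), Lrrtm4 (−5.28), Ntm (−4.72), Lrrtm1 (−4.63), Dscam (−4.27) and Lsamp (−4.21) fell by more than 4 on the log2 scale. Nfasc fell from its peak (−1.70) but remained at 115 to 285 CPM, above OPCs.

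Cntn2 rose most clearly. It measured 272, 249.7, 159.6, 329.5 and 354 CPM in myelinating and 1.68, 6.76, 0, 9.67 and 2.34 CPM in committed oligodendrocytes. The 2 sets of values did not approach each other (6.74 ± 0.31 (SE), adjusted p = 1.4e-101). Tenm2, at 1.13 to 10.3 CPM, was at least 6.48-fold higher than in committed cells, which had 0 UMIs. Cadm4 (−0.04 ± 0.17 (SE)) did not pass. Of the 25 calls, 17 held in every setting in which the gene could be tested. The 1-month experiment held 12 myelinating cells, so its values in this class are the least precise.

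**Figure D4:**
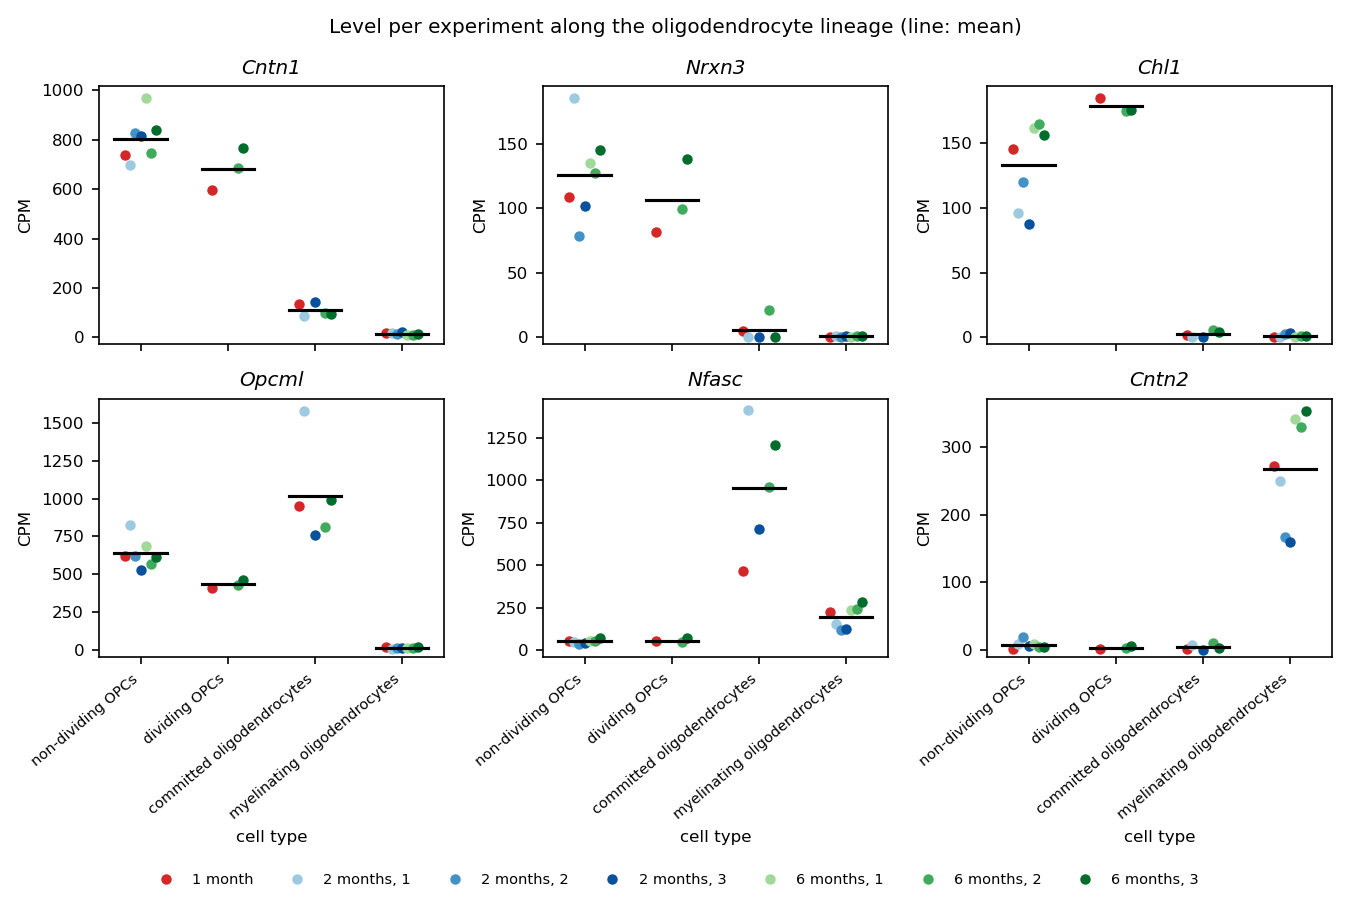
Level (y axis, CPM) of Cntn1, Nrxn3, Chl1, Opcml, Nfasc and Cntn2 in non-dividing and dividing OPCs and in committed and myelinating oligodendrocytes (x axis), 1 point per experiment, with a line at the mean. Cntn1, Nrxn3 and Chl1 are, among these classes, highest in OPCs, Opcml and Nfasc are highest in committed cells and Cntn2 in myelinating cells.

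A list of 43 partner genes was counted alongside, comprising other neurexin ligands and postsynaptic organisers, receptor phosphatases, latrophilins with their Flrt ligands, and the scaffolds that hold adhesion proteins at the membrane. In cycling against quiescent NSCs, 16 of 30 tested partners fell, led by Sptbn1 (−2.05, a spectrin), Ptprz1 (−1.61, the phosphatase receptor of Cntn1) and Ank2 (−1.48, an ankyrin that anchors L1 proteins). In IPCs against cycling NSCs, 3 of 30 rose and 5 fell. In early neuroblasts against IPCs 7 of 30 rose and 3 fell, with Ank3 (4.18), Flrt3 (2.94) and Ptprd (2.27) higher, and in late against early neuroblasts 2 of 31 rose, Ank3 and Clstn1. In astrocytes 11 of 33 were higher and 5 lower than in quiescent NSCs. In dividing OPCs 1 of 41 rose and 7 fell, and in committed oligodendrocytes 3 of 42 rose and 31 fell. Myelinating oligodendrocytes had 12 of 35 higher and 19 lower than committed ones, with Epb41l3 (6.84, a scaffold of the contactin complex beside nodes), Ptprd (5.53) and Ank2 (3.06) higher. The cycling effect was lower in NSCs than in OPCs for 12 of 42 partners. All values in this paragraph are log2 fold changes from the same fits, read against the background shares given above.

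Age could be described only. The single 1-month experiment was set beside the range of the 3 at 6 months, which share its chemistry, and no test is possible with 1 experiment. In quiescent NSCs, 11 of 21 members examined lay below the 6-month range and 0 above, against 26.6% and 15.5% of all genes. Ntm was at 264 CPM at 1 month and at 479.6 to 594 CPM at 6 months, Lsamp at 489 against 586 to 674 CPM, and Cadm1 at 42.2 against 80.4 to 121 CPM. In astrocytes 13 of 19 lay below and 1 above (27% and 17.9% of all genes), the exception being Chl1 at 39.8 against 13.9 to 21.5 CPM. In non-dividing OPCs 18 of 34 lay below and 4 above (28.7% and 19.8%), and in late neuroblasts 9 of 28 and 3 (23.4% and 16.5%). In IPCs 4 of 21 lay below and 8 above (19.6% and 20.7%). The 1-month age and that 1 experiment cannot be told apart.

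Some members also varied between libraries within a cell class. Ntm was low in the second and the third 2-month experiments, at 143 and 152 CPM in quiescent NSCs, where the other 5 ran from 264 to 594 CPM, and at 189.5 and 185 CPM in OPCs, where the others ran from 437 to 779 CPM. Astrocytes (351 and 240.4 CPM against 478 to 1689.8) had the same order. The first 2-month experiment, with the same age and chemistry, was not low. Between chemistries, Cadm1 in OPCs ran from 253 to 272 CPM with Version 2 and from 116 to 175 CPM with Version 3, without overlap. With the block, the comparisons above set cell classes of the same experiment against each other. Between cycling and quiescent NSCs, 13 of 23 tested members were called within Version 3 alone and 9 of 17 within Version 2 alone.

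**Figure D5:**
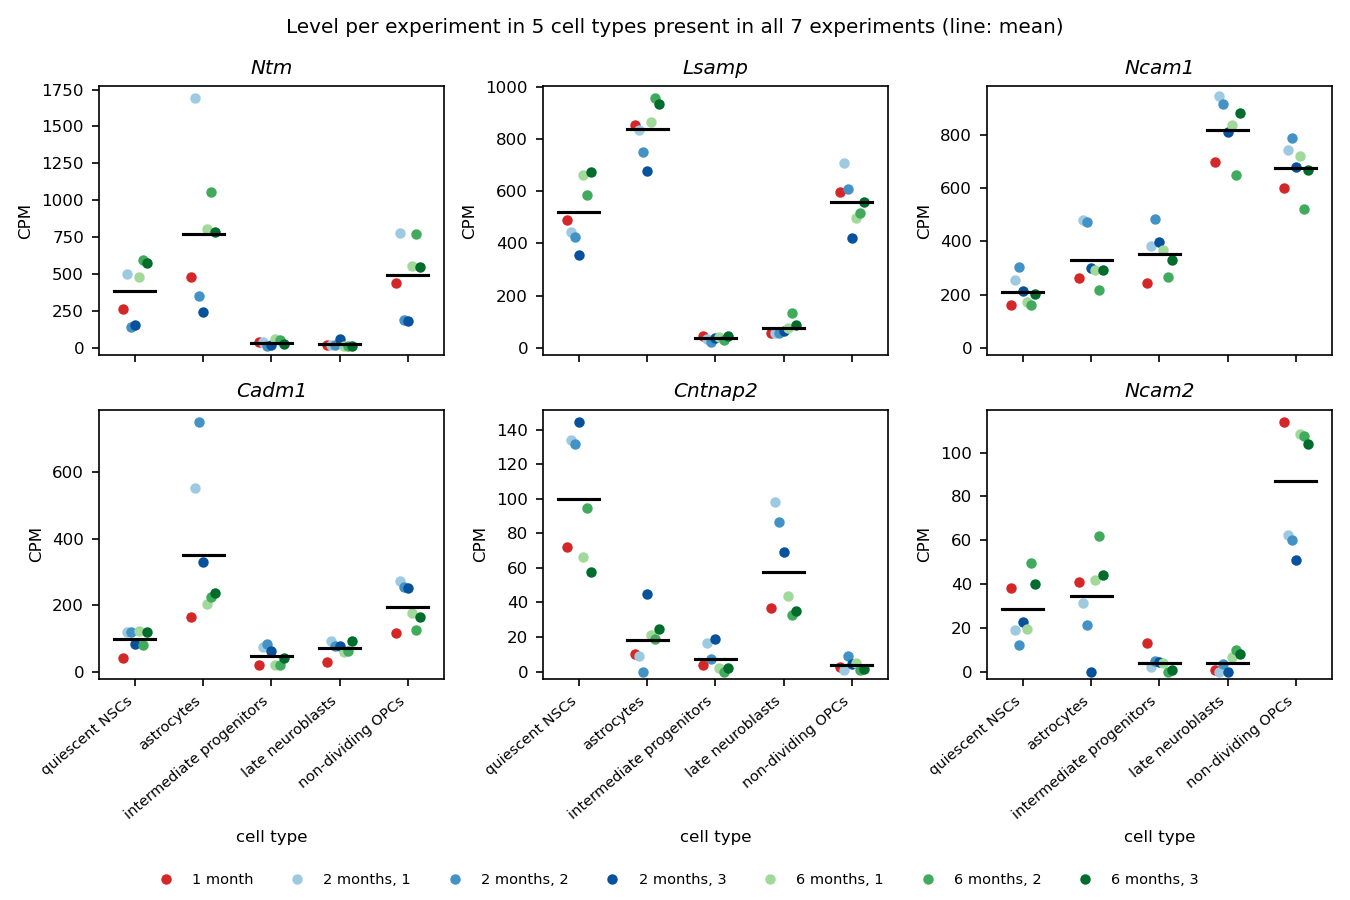
Level (y axis, CPM) of Ntm, Lsamp, Ncam1, Cadm1, Cntnap2 and Ncam2 in the 5 classes shown (x axis), which all 7 experiments held, 1 point per experiment with a line at the mean. Ntm is low in the second and the third 2-month experiments in quiescent NSCs, astrocytes, IPCs and OPCs, and Cadm1 is higher in 2-month than in other experiments in OPCs.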

How the data were processed

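Single cells of the dentate gyrus of Ki67TD-NES mice were measured by 10x 3′ RNA sequencing in 8 libraries from 7 experiments. The authors aligned reads with Cell Ranger 3.0.2 to mm10 extended with the reporter sequences and aggregated the libraries without depth normalization, and the deposited matrix holds raw UMI counts of 31058 genes. The submitters' notes also name cutadapt 1.18 and Seurat. Cells with at least 500 genes and at most 10% mitochondrial counts were kept and gated by fixed marker lists: 3 or more NSC or astrocyte markers, 5 or more cell cycle markers for cycling and at most 2 for quiescent or non-dividing cells. Neuroblasts were split by late neuronal UMIs per 10000 (at most 2 early, at least 4 late). UMIs were summed per experiment and class where at least 10 cells were present.

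Sums were tested with edgeR 4.0.16 in R 4.3.3 (glmQLFit, glmQLFTest, TMM scaling), for genes with at least 20 UMIs over the sums of a comparison, with Benjamini-Hochberg adjustment over all genes tested at 0.05. SEs were derived from the fold change and the F statistic. Cell classes of an experiment came from the same pooled animals, so the experiment was a replicate block, and this pairing comes from the experiment and not from replicate numbers. The replicates of a comparison were the 3 to 7 pools of mice that entered it and not single mice. The fit estimated spread by sharing information across genes. SEs and p-values therefore do not measure the spread of 1 gene's own values between pools, which the values per experiment show. The authors treated cells as replicates. Code for levels and figures used Python 3.11.15 with numpy 2.4.6, pandas 2.3.3 and scipy 1.17.1. The fits were tested on simulated counts. Intervals and floors cover counting error only.

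The text names all 36 members and, of 43 partner genes, at most the 3 with the smallest adjusted p in a direction of a comparison. The members and lists were chosen with earlier results of these data known. Alternatives were the fit without the block, library totals, DESeq2 1.42.0, a filter on genes with a UMI in 20% of cells, no filter, each chemistry alone, stricter gates, cells thinned to 1000 UMIs and leaving out each experiment.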

Additional observations from a re-analysis of the deposited data

Results flagged for a closer look

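Of 155 groups of levels examined (1 member in 1 class with 4 or more experiments and a mean of at least 20 CPM), 10 had 1 experiment far from the others by Dixon's criterion, which chance alone flags in about 1 in 20 groups. Of these, 5 came from the second 2-month experiment. There, Cadm4 was at 0 CPM in 14 cycling NSCs (others 40.1 to 50.9) and at 313 CPM in mural cells (others 141 to 212), Ncam1 was at 408 CPM in cycling NSCs (others 181 to 235), and Lrrtm2 and Dscam were at 55.5 and 78.6 CPM in non-dividing OPCs (others 78.5 to 91.8 and 124 to 147). In the third 2-month experiment Nlgn3 was at 135 CPM in astrocytes (others 42.2 to 68.8) and Ntm at 57.7 CPM in late neuroblasts (others 13.2 to 22.1). Opcml was at 1582 CPM in committed oligodendrocytes of the first 2-month experiment (others 758 to 988), Lsamp at 135 CPM in late neuroblasts of the second 6-month experiment (others 55.4 to 89.3), and Nrxn2 at 8.25 CPM in the 12 myelinating oligodendrocytes of the 1-month experiment (others 42.4 to 60.2). The part of cell number, chemistry or age in these values was not tested.

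The cycling effect differed between NSCs and OPCs by the interaction test for 11 members. On the log2 scale, as the NSC effect minus the OPC effect, the differences were −3.09 for Cntnap2, −2.34 for Chl1, −2.11 for Cadm2, −1.95 for Ntm and for Nlgn1, −1.73 for Lsamp, −1.65 for Ncam2, −1.51 for Nrxn2, −1.44 for Nrcam, −1.37 for Cadm4 and 3.05 for Cadm3. The 3 experiments that carry this test were all made with Version 3.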

How the results depend on the processing

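Of 3204 fold changes recomputed under alternatives, 2927 kept their side of the threshold, 257 kept their direction and no longer passed, and 17 passed newly. A further 3 changed sign where the main or the alternative fit passed. Direction was not checked for fold changes that passed in neither fit, which are among the 2927. Those 3 were Nlgn3 in intermediate progenitors against cycling NSCs (0.92 with cells thinned to 1000 UMIs), Cadm4 in committed oligodendrocytes against OPCs (−0.28 thinned) and Nrcam in that comparison (−0.048 with chemistry Version 2 only), all as log2 fold changes. Beyond construction (fewer genes, cells or experiments), the cause was not tested. In dividing OPCs and for the difference between lineages, Version 3 alone repeats the main fit, since all experiments there used it. Its values are among the 2927 by construction. Of 72 highest-class levels recomputed with stricter gates or as a mean over cells, 66 moved by less than 1 SD and 6 by more, all with stricter gates, and OPCs held the highest level of 10 to 13 members when each experiment was left out, against 12.

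The count of members called is given against the count reported. Without the replicate block, which pairs classes of 1 experiment, it was 3 against 11 between intermediate progenitors and cycling NSCs, 0 against 2 between the neuroblast classes (6 at an unadjusted p under 0.05 in edgeR), 0 against 13 in dividing OPCs (4 unadjusted), and within 1.5 times in all other comparisons. With DESeq2 it was 5, 0 (2 unadjusted) and 3 in the same comparisons. Several settings left fewer members to test. With genes detected in 20% of cells, 9 of 11 tested members against 15 of 23 were called in cycling NSCs. In early neuroblasts it was 4 of 7 against 9 of 27, in late neuroblasts 0 of 13 (3 unadjusted) against 2 of 29. In astrocytes it was 10 of 10 against 16 of 24. With Version 2 alone, 9 of 17 tested members were called in cycling NSCs and 0 of 18 in intermediate progenitors (6 unadjusted in edgeR). In early neuroblasts it was 5 of 21 and in late neuroblasts 0 of 23 (3 unadjusted). In committed oligodendrocytes it was 10 of 27 against 27 of 35, and in myelinating ones 16 of 21 against 25 of 30. With Version 3 alone, 7 of 21 were called in intermediate progenitors and 0 of 26 in late neuroblasts (3 unadjusted). With cells thinned, 8 of 16 tested members were called in cycling NSCs and 0 of 10 in intermediate progenitors (3 unadjusted). In early neuroblasts it was 1 of 12, in late neuroblasts 0 of 19 (3 unadjusted) and in astrocytes 9 of 21. In dividing OPCs it was 2 of 28 and in committed oligodendrocytes 13 of 28. For the difference between lineages it was 3 of 30 against 11 of 35. With stricter gates, 0 were called in early (3 unadjusted) and 0 in late neuroblasts (1 unadjusted). Library totals in place of TMM called 0 in late neuroblasts and at least 5 cells per sum, an alternative chosen after seeing the data, 1.

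Leaving out 1 experiment at a time called 5 to 11 members in intermediate progenitors (7 without the 1-month and 5 without the third 6-month experiment), 0 to 2 in late neuroblasts (0 without the 1-month or the second 2-month experiment) and 3 to 10 in dividing OPCs (3 without the third 6-month experiment). In the other comparisons it called 11 to 15 in cycling NSCs, 7 to 10 in early neuroblasts, 15 to 16 in astrocytes, 23 to 27 in committed and 22 to 25 in myelinating oligodendrocytes, and 9 to 10 for the difference between lineages. Library totals moved the median of all genes by −0.47 on the log2 scale in myelinating, −0.21 in committed oligodendrocytes, −0.13 in astrocytes and 0.15 in early neuroblasts. The share of higher calls among all calls then went from 54.5% to 28.3%, from 43.8% to 28.4%, from 51.3% to 36.9% and from 31.5% to 45.4%, from 55.9% to 44.8% in intermediate progenitors and from 78.9% to 49.5% in late neuroblasts. Members were then 2 higher and 26 lower, 8 and 18, 12 and 4, 10 and 0 (1 lower at an unadjusted p under 0.05), and 6 and 5. DESeq2 moved the share in dividing OPCs from 59.3% to 79.3%. Stricter gates left too few cycling NSCs and dividing OPCs to fit, and Version 2 alone too few dividing OPCs. Depth limits what low members can show: cycling NSCs held 1085055 UMIs and early neuroblasts 587346, so 3 counts there are 2.76 and 5.11 CPM.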
